A study of Mus musculus with 40 samples.

Results

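Mgp2 is a line of 4T1, a mammary carcinoma cell line of the mouse, that carries 1 of the short hairpin RNAs directed against Mgp, the gene of matrix Gla protein. It was set against the 3 other lines with an shERWOOD hairpin to the same target, Mgp1, Mgp1U1 and Mgp1U3. Each line had 2 columns of deposited values, called libraries here, so that 2 of the 20 in the series were compared with 6. Each line was 4T1 cells infected at a multiplicity of 0.3 and kept in 500 µg/ml hygromycin for about 10 days; all 4 lines thus carry a hairpin to Mgp, and none is an untransduced or unrelated-target control. A further line, labelled 88943, was deposited together with the Mgp lines and is taken from this to be directed at Mgp too. It was selected in 1 µg/ml puromycin. The line enters no test given here, other than 1 alternative fit that includes it. Its levels are set beside those of Mgp2 without a test. The labels list 4 samples per hairpin, named by the letters A and B and a number, and do not say what these stand for. Whether a hairpin is represented by 1 infected and selected cell population or by more is thus not given. What the hairpin did and what its cells carried otherwise cannot be told apart, and nothing says that the 2 libraries came from separate cultures. The p-values below then measure the spread between libraries, which may be technical.

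A short hairpin RNA is transcribed from an integrated cassette, cut into a small duplex by Dicer and loaded into an Argonaute protein, which lowers mRNAs that pair with the guide strand. Full pairing leads to cleavage of the intended mRNA, while pairing of the seed of the guide, mostly in 3′ untranslated regions, lowers other mRNAs more modestly. Lines with different guides to 1 target are compared to separate transcripts that every guide moves from those that only 1 moves, and the design text of the series names off-target effects of shERWOOD and TRC hairpins as its question. The hairpin sequences are not used here, so no transcript was searched for a match to the Mgp2 guide.

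The 2 Mgp2 libraries were unlike each other before any comparison. They held 22.1 and 14.5 M reads in genes (M, 1000000 reads), within the 12.1 to 22.9 M of all 8 libraries. The squared differences in reads between Mgp2-1 and Mgp2-2 were 12.1 times those of counting alone (chi-square per degree of freedom over 12230 genes). The ratio was 1.87 in Mgp1, 1.57 in Mgp1U1 and 3.77 in Mgp1U3. The median difference between the libraries of a line was 0.067 deposited log2 units in Mgp2, against 0.034 in Mgp1, 0.036 in Mgp1U1 and 0.050 in Mgp1U3. On the leading principal component, with 43.0% of the variance, Mgp2-1 stood at 9.35 and Mgp2-2 at 2.63, while the other 6 libraries lay between -6.96 and 1.97. Rn45s, the ribosomal RNA precursor, is among the genes counted in the chi-square. It took 2.39% of the reads in Mgp2-1 and 1.29% in Mgp2-2, against 0.961 to 1.71% in the other 6. This gap in 1 entry is part of the 12.1, and the ratio without Rn45s was not computed. Mgp2-1 thus stands apart from its own partner, and counts are given below with and without it. Epithelial markers were present in all libraries: the Epcam level was 55.7 and 53.4 CPM (counts per 1000000 reads) in Mgp2, against 55.9 to 66.0 in the other 6. Of 11 immune cell markers in the table the summed level was 6.34 and 4.83 CPM in Mgp2, against 5.28 to 6.38 in the other 6, and 3 of the 11 were at 0 in all 8 libraries. Of 13 markers of fibroblasts, endothelium and fat the sum was 25.8 and 32.2 CPM in Mgp2, against 29.4 to 35.5 in the other 6, nearly all of it Pdgfra, with 4 of the 13 at 0 throughout, Kdr and Plin1 among them.

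Mgp itself, which encodes a secreted inhibitor of calcification (chr6:136872435-136875823, minus strand, GRCm38), was low in Mgp2. Its level was 1.90 and 2.07 CPM in Mgp2, against 2.47 and 3.19 CPM in Mgp1, 8.42 and 8.22 CPM in Mgp1U1, and 1.06 and 1.24 CPM in Mgp1U3. The Mgp2 values thus lay below both lines Mgp1 and Mgp1U1 and above Mgp1U3. In a limma fit over 18295 genes, Mgp in Mgp2 was below the mean of the other 3 lines by a difference of -0.17 ± 0.03 (log2 difference of the deposited values ± SE, 2 against 6 libraries, adjusted p = 0.0334). That difference came from Mgp1U1: the pairwise value was -0.52 against Mgp1U1 (limma, adjusted p = 7.0e-04), while those against Mgp1 (-0.09, adjusted p = 0.283) and Mgp1U3 (0.12, adjusted p = 0.112) did not pass. Without Mgp1U1 the value was 0.01 (adjusted p = 0.878), and the call on the mean was lost when any 1 of the 8 libraries was left out (adjusted p = 0.0728 to 0.212). The deposited values are compressed for genes with few reads, and in scaled reads Mgp stood at 0.48 times the mean of the other 3 lines. The Mgp level was 14.8 to 31.2 CPM in the 8 libraries of the shERWOOD lines against Slpi, the other gene targeted in the series. The line labelled 88943 was at 16.2 and 15.4 CPM of Mgp, within that range and far above the 4 shERWOOD lines against Mgp. Its target is inferred and no untransduced control is at hand, so the effect of its hairpin on Mgp was not tested.

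Rbmx was the transcript that set Mgp2 apart most. It encodes an X-linked heterogeneous nuclear ribonucleoprotein (hnRNP G) that binds nascent transcripts and takes part in splice site choice (ENSMUSG00000031134.16, chrX:57383530-57393036, minus strand). The Rbmx level was 104 and 104 CPM in Mgp2, against 55.0 and 53.1 CPM in Mgp1, 52.2 and 53.0 CPM in Mgp1U1, and 49.2 and 56.7 CPM in Mgp1U3. Both Mgp2 libraries lay far above the 6 others and the groups did not overlap. The log2 difference was 0.71 ± 0.04, a 1.94-fold higher number of scaled reads (limma, 9109 genes tested, adjusted p = 8.85e-07), and Rbmx passed against each line alone. In bulk RNA a higher level in every cell and a high level in part of the cells cannot be told apart. Outside this comparison, Rbmx stood at 65.8 and 66.0 CPM in the line labelled 88943 and at 45.8 to 57.9 CPM in the 8 libraries of the Slpi-directed shERWOOD lines, all below Mgp2.

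Rbmx has an autosomal copy of similar sequence, Rbmxl1 (chr8:78505269-78508898, minus strand), and Rbmxl1 moved the other way in Mgp2. The coding sequences of the transcripts Rbmx-202 and Rbmxl1-201 (GENCODE vM21) are identical at 90.9% of 1164 aligned bases. The longest identical stretch is 67 bases, shorter than the 76 bp reads. It is shown widened to 76 bases, coding positions 1036 to 1111 of Rbmx and 1027 to 1102 of Rbmxl1, counted from 1 at the start codon. Capitals mark the 2 bases that differ.
Rbmx: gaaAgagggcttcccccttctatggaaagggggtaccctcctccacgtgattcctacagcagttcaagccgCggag
Rbmxl1: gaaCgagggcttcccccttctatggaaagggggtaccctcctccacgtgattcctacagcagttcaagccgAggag
Of the 2033 windows of 76 bases in Rbmx-202, 0 occur exactly in an annotated Rbmxl1 transcript, and of the 1620 windows in Rbmxl1-201, 0 occur exactly in an Rbmx transcript. How reads with a mismatch were shared out between the 2 genes by the authors' alignment is not given in the sources used here, so both values are uncertain to that degree.

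The Rbmxl1 level was 102 and 96.3 CPM in Mgp2, against 119 to 125 CPM in the other 6 libraries. The groups did not overlap, and Rbmxl1 was lower in Mgp2 by a log2 difference of -0.24 ± 0.04 (limma, adjusted p = 0.00148). Rbmxl1 stood at 113 to 125 CPM in the Slpi-directed shERWOOD libraries. In the line labelled 88943 it was at 89.9 and 86.6 CPM, below Mgp2, so a low Rbmxl1 level was not particular to Mgp2. The sum of both genes was 206 and 200 CPM in Mgp2, against 171 to 180 CPM in the other 6, so the sum was higher in Mgp2 as well. Rbmx made up 50.6 and 51.9% of the reads of the pair in Mgp2, against 28.5 to 31.5% in the other 6, 42.3 and 43.3% in the line labelled 88943, and 27.8 to 32.1% in the Slpi-directed shERWOOD libraries. The higher share in Mgp2 was thus met in no other shERWOOD line, while the line labelled 88943 lay between.

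**Figure D1:**
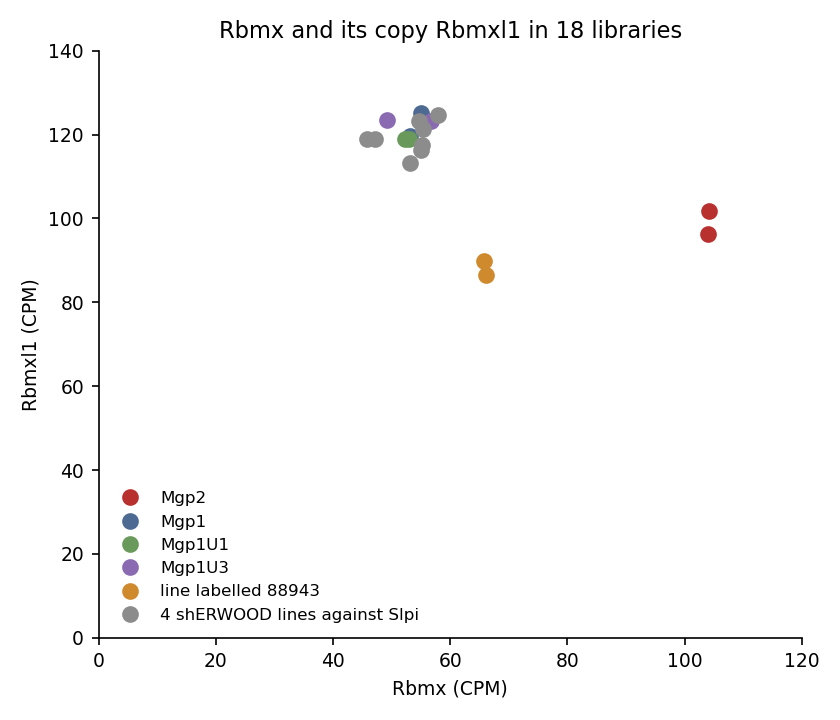
Level of Rbmx (x axis, CPM) against that of its copy Rbmxl1 (y axis, CPM), 1 point per library, for the 10 libraries of the Mgp table, the line labelled 88943 included, and the 8 of the Slpi-directed shERWOOD lines. The 2 Mgp2 libraries lie alone at 104 CPM of Rbmx, while all other shERWOOD libraries lie between 45.8 and 57.9 CPM.

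Kctd11 encodes a BTB-domain adaptor of cullin 3 ligases known to restrain Hedgehog signalling (chr11:69878261-69881406, minus strand). It was chosen together with Rbmx as a mark of Mgp2 with earlier results of these data known, so its values are no separate check of that choice. Unlike Rbmx, it did not stand apart in both Mgp2 libraries. The Kctd11 level was 78.5 and 55.4 CPM in Mgp2, against 54.5 and 55.5 CPM in Mgp1, 40.1 and 45.7 CPM in Mgp1U1, and 37.4 and 33.2 CPM in Mgp1U3. Library Mgp2-1 was the highest of the 8, but Mgp2-2 lay at the level of both Mgp1 libraries, so the groups overlapped. On the mean the log2 difference was 0.40 ± 0.07 (limma, adjusted p = 0.00473), and against Mgp1 alone it did not pass (adjusted p = 0.18). Without Mgp2-1 the difference was 0.21 (adjusted p = 0.0265), and without the line Mgp1U3 it was 0.31 and did not pass (adjusted p = 0.0551). Kctd11 stood at 54.8 to 71.3 CPM in the Slpi-directed shERWOOD libraries. Of 22 tested KCTD adaptors and cullin 3 partners, 6 rose and 1 fell (31.8%, where 14.2% of all 9109 genes tested passed, 6.6% higher and 7.61% lower), among them Kctd13 (0.19 ± 0.04) and Kctd17 (0.15 ± 0.04) higher and Kctd9 (-0.23 ± 0.04) lower in Mgp2. Against each other line alone 0 of the 22 passed in all 3 comparisons. Without Mgp2-1, 1 rose and 0 fell of 21, and without the line Mgp1U3, 0 rose and 1 fell of 22; 2 or 3 rose when a library of Mgp1 or Mgp1U1, or Mgp1U3-2, was left out, and 6 rose and 6 fell without Mgp2-2. Of 9 tested genes of the Hedgehog pathway 0 passed (limma), with a median log2 difference of 0.002.

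Across the transcriptome Mgp2 showed many small differences. Of 9109 genes tested, 1294 passed against the mean of the other 3 lines (limma, Benjamini-Hochberg adjusted p under 0.05), a background of 14.2%; 601 were higher in Mgp2 (6.6%) and 693 lower (7.61%). The median size of these differences was 0.16 on the deposited log2 scale, 4 of the 1294 reached 0.5, and 18 reached a 1.5-fold difference in scaled reads. In 972 of them (10.7% of the genes tested, 406 or 4.46% higher and 566 or 6.21% lower) both Mgp2 libraries also lay outside the range of the 6 others. Without a test, both Mgp2 libraries lay outside that range in 20.4% of the genes tested. The same share was 21.3% for Mgp1U3, 15.1% for Mgp1 and 12.7% for Mgp1U1, so lying outside was not particular to Mgp2. All 1294 had both Mgp2 libraries on the same side of the mean of the other lines, and in 1034 of them (79.9%) Mgp2-1 was the farther of the 2.

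The number depends on which libraries are used. Without Mgp2-1, 392 genes passed, and without Mgp2-2, 2925. Leaving out Mgp1-1 gave 576, Mgp1-2 558, Mgp1U1-1 452, Mgp1U1-2 581, Mgp1U3-1 1331 and Mgp1U3-2 758; a lone library is assumed in these fits to vary like those of the other lines. Of the 1294 genes, 325 also passed in the same direction without Mgp2-1. When each line was entered as 1 sample, its mean, with the spread taken from the 3 other lines, 1 gene passed, which was Rbmx (adjusted p = 0.00341). The next lowest among the genes named below was Arl5a (limma, adjusted p = 0.0558). The tests that follow therefore set the 2 Mgp2 libraries against library spread, not against the spread between lines. That library spread is pooled over all lines, and the Mgp2 pair has the widest, a median of 0.067 against 0.034 to 0.050. The SE and p-values given can thus be too small for Mgp2. With array weights, which let the spread differ between libraries, 445 genes passed.

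**Figure D2:**
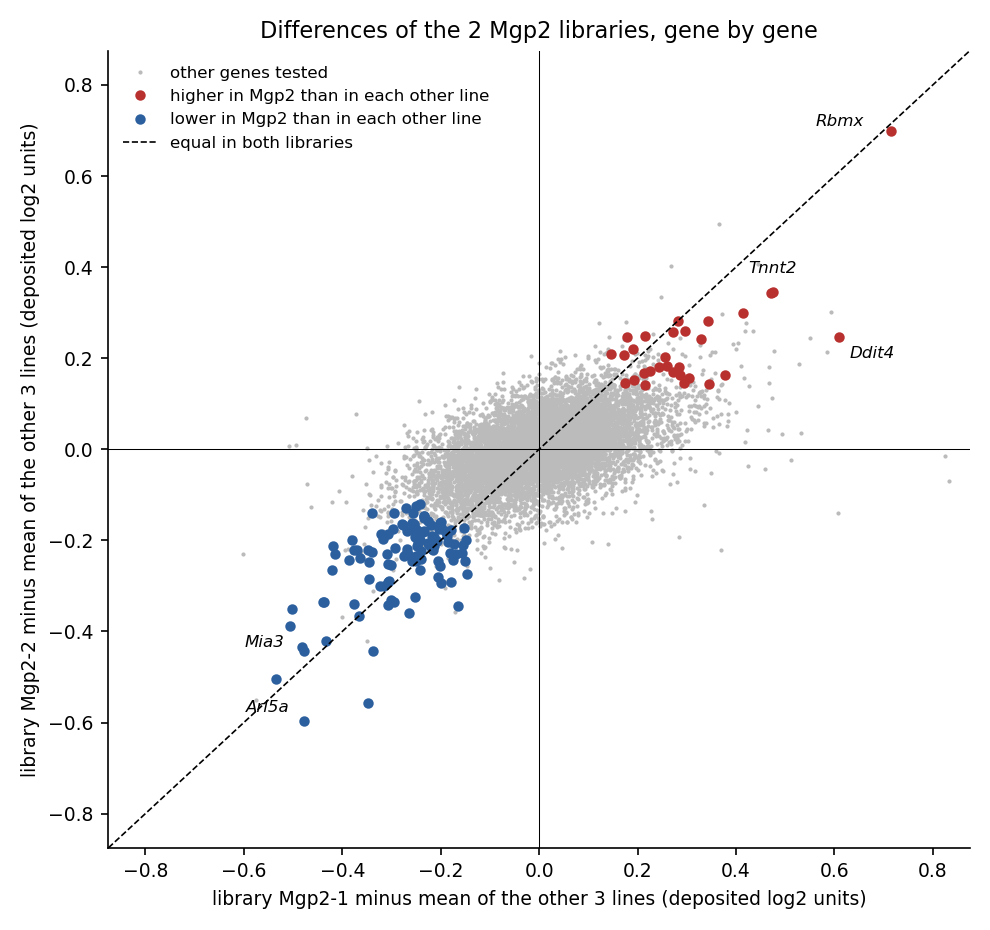
Difference of library Mgp2-1 (x axis) and of library Mgp2-2 (y axis) from the mean of the other 3 lines, in deposited log2 units, for 9109 genes; coloured points passed against each other line alone, 30 higher and 112 lower in Mgp2. Rbmx is equally high in both libraries, and most coloured points lie nearer to 0 in Mgp2-2 than in Mgp2-1.

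Measured the same way, Mgp1U3 differed from the mean of its 3 companions in 1068 genes (11.7%). Mgp1 did so in 467 (5.13%) and Mgp1U1 in 314 (3.45%). Mgp2 thus had the most in this fit and in 14 of 20 alternatives, while in 6 another line had more. With array weights Mgp2 had the fewest, 445, against 1464 in Mgp1, 959 in Mgp1U1 and 1106 in Mgp1U3. Mgp2 also had the fewest when Mgp2-1 was left out. The rank of Mgp2 thus depended on the fit. These counts share libraries and were not tested against each other. Line by line, Mgp2 differed from Mgp1U3 in 1896 genes (20.8%), from Mgp1 in 776 (8.52%) and from Mgp1U1 in 522 (5.73%). The genes that passed in the same direction against all 3 lines numbered 142 (1.56%), 30 higher (0.329%) and 112 lower (1.23%) in Mgp2. All 142 also had both Mgp2 libraries outside the range of the other 6. Leaving out 1 library moved this number to between 19 (without Mgp1U1-1) and 933 (without Mgp2-2); it was 90 without Mgp2-1, 76 of them shared with the 142, and it was 24 without Mgp1U1-2, 29 without Mgp1-1, 27 without Mgp1-2, 79 without Mgp1U3-2 and 111 without Mgp1U3-1.

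The genes described next come from the 15 highest and 15 lowest in Mgp2 by a fixed rule. It took 12 by log2 difference and 3 more by fold of scaled reads in each direction. All had to have both libraries outside the range of the other 6, so their lack of overlap was set by the rule. Their differences spanned 0.22 to 0.71 in the higher set and 0.20 to 0.56 in size in the lower set. Leaving out Mgp2-1 cost 2 of the 30 their call, Rpl37a and Mtm1, and Rpl37a also lost it without Mgp1U1-1; 0 changed direction in the 615 comparisons made over 21 alternatives, some of which left genes untested. Mgp2-1 was the farther library in 12 of the 15 higher and 10 of the 15 lower genes.

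Among transcripts lower in Mgp2, Arl5a lay well below the 3 other lines. Arl5a encodes a small GTPase of the Arf-like family at the Golgi (chr2:52397951-52424901, minus strand), and its level was 77.2 and 69.9 CPM in Mgp2, against 127 and 123 CPM in Mgp1, 113 and 114 CPM in Mgp1U1, and 113 and 120 CPM in Mgp1U3. Arl5a fell by 0.54 ± 0.04 on the log2 scale (limma, adjusted p = 6.5e-06), 1.62-fold in scaled reads. Mia3 (TANGO1), which loads bulky cargo such as collagen at exit sites of the endoplasmic reticulum, was at 143 and 151 CPM in Mgp2, against 203 to 220 CPM in the other 6, a difference of -0.46 ± 0.04 (limma, adjusted p = 1.26e-05). Atp2a2, the calcium pump of the endoplasmic reticulum, was at 436 and 493 CPM in Mgp2, against 597 to 649 CPM in the other 6 (-0.43 ± 0.04, limma, adjusted p = 0.000101). Arl5a and Mia3 lay below all 8 Slpi-directed shERWOOD libraries as well; Atp2a2 did not, with 472 to 531 CPM there. In the line labelled 88943 Arl5a (102 and 105 CPM) and Mia3 (251 and 267 CPM) were above Mgp2, while Atp2a2 (493 and 495 CPM) was near Mgp2-2.

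Arpp19, Tk1, Senp5 and Hmga2 were also lower against each of the 3 other lines. Arpp19, an inhibitor of the phosphatase PP2A-B55 that sustains mitotic phosphorylation, was at 165 and 169 CPM in Mgp2, against 226 to 244 CPM in the other 6 (-0.43 ± 0.03, limma, adjusted p = 1.05e-05). Tk1, the S-phase thymidine kinase, was at 93.6 and 86.2 CPM in Mgp2, against 115 to 136 CPM in the other 6 (-0.39 ± 0.04, limma, adjusted p = 7.99e-05). Tk1 was the only 1 of 24 DNA replication genes tested that passed (4.17%, where 14.2% of all genes tested did), and the median of the list was -0.02. Senp5, a protease that removes SUMO, was at 44.8 and 50.5 CPM in Mgp2, against 65.6 to 76.9 CPM in the other 6 (-0.39 ± 0.04, limma, adjusted p = 0.000101). Hmga2, an architectural chromatin protein and a classical target of let-7, was at 834 and 726 CPM in Mgp2, against 996 to 1162 CPM in the other 6 (-0.45 ± 0.05, limma, adjusted p = 0.000163). Arpp19, Tk1 and Senp5 lay below all 8 Slpi-directed shERWOOD libraries; Hmga2, with 747 to 862 CPM there, lay below them in Mgp2-2 and among them in Mgp2-1. The line labelled 88943 was as low as Mgp2, or nearly so, for Arpp19 (169 and 172 CPM), Senp5 (45.2 and 43.4 CPM) and Hmga2 (762 and 747 CPM), and Tk1 was higher there (145 and 146 CPM). A low level of these 3 was therefore not particular to Mgp2.

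**Figure D3:**
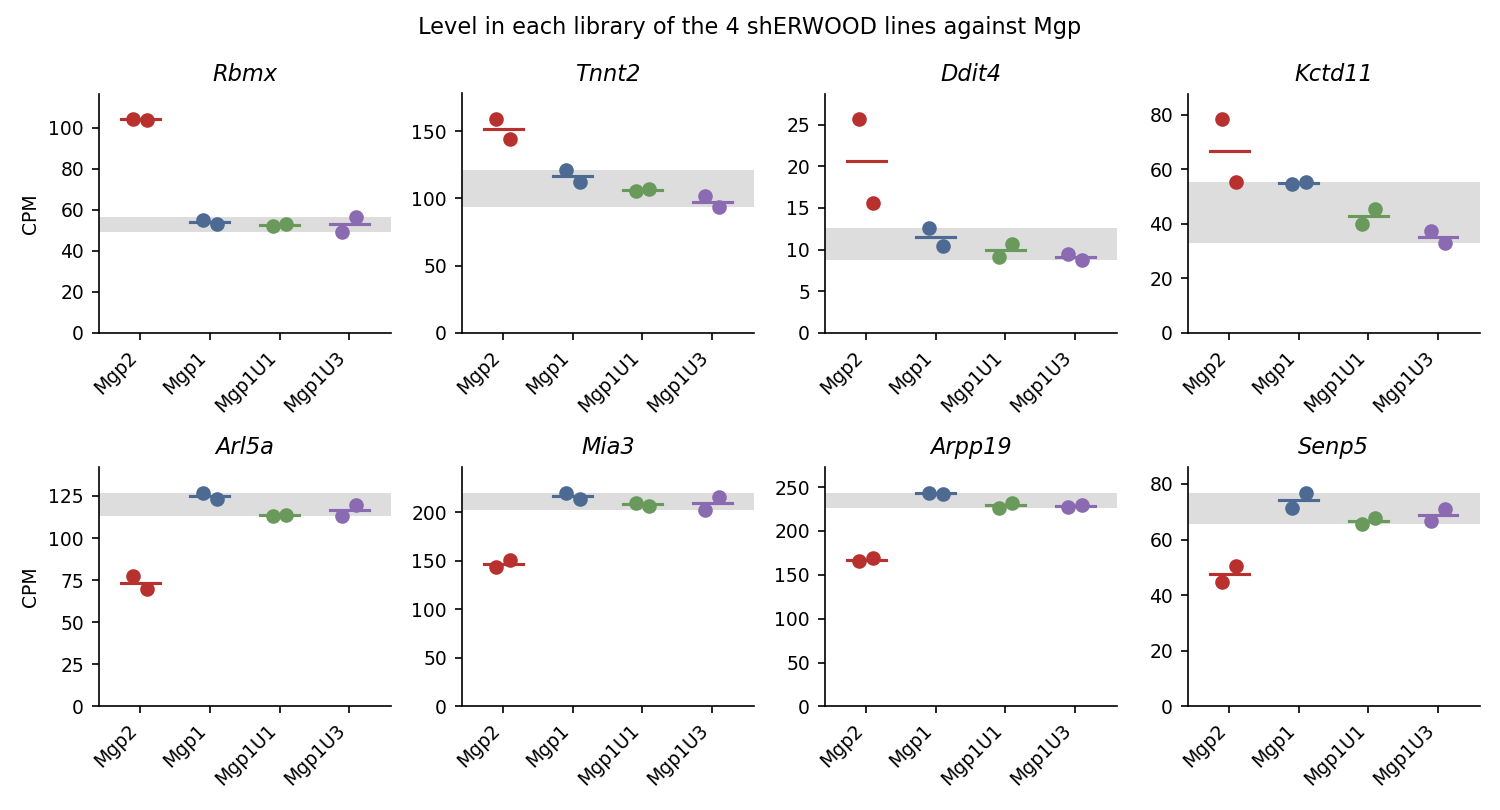
Level in CPM (y axis, from 0) of 8 genes in the 2 libraries of each line (points; bars are line means), with the range of the 6 libraries of Mgp1, Mgp1U1 and Mgp1U3 shaded. The Mgp2 points lie clear of the shading for every gene drawn except Kctd11, where Mgp2-2 (55.4 CPM) falls inside it.

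For Cxcl5 and Mmp3 the difference of Mgp2 owed part of its size to 1 line, Mgp1U3. Cxcl5, a neutrophil-attracting chemokine, was at 22.1 and 23.1 CPM in Mgp2, against 33.1 and 36.1 CPM in Mgp1, 23.8 and 23.8 CPM in Mgp1U1, and 90.3 and 90.1 CPM in Mgp1U3. Mgp2 was the lowest but next to Mgp1U1, and the pairwise difference between them did not pass (limma, adjusted p = 0.61). The log2 difference against the mean of the 3 was -0.56 ± 0.04 (limma, adjusted p = 2.18e-06), and it was -0.19 without Mgp1U3 (adjusted p = 0.0189). Mmp3, the matrix metalloproteinase stromelysin, was at 70.0 and 73.2 CPM in Mgp2, against 83.8 to 103 CPM in Mgp1 and Mgp1U1 and 149 and 138 CPM in Mgp1U3; it passed against each line, and its difference was -0.46 ± 0.04 with Mgp1U3 and -0.29 without it. Of 18 tested NF-kappaB targets and chemokines 3 fell, Cxcl5, Cxcl1 and Ccl2, and 1 rose, Cxcl16 (22.2%, against 14.2% of all genes). Cxcl1 and Ccl2 did not pass without Mgp1U3 (adjusted p = 0.153 and 0.191). In the Slpi-directed shERWOOD libraries Cxcl5 stood at 7.68 to 13.1 CPM, and in the line labelled 88943 at 5.12 and 5.49 CPM, all below Mgp2, so the low value held only beside the 3 other shERWOOD lines against Mgp. Mmp3 was at 72.2 and 74.9 CPM in the line labelled 88943, close to Mgp2. Other lower genes were Id2, an inhibitor of basic helix-loop-helix factors (-0.39 ± 0.04), Ahnak, a giant scaffold protein (-0.42 ± 0.07), and, by fold, Cd1d1, which presents lipid antigens, the alcohol dehydrogenase Adh7 and the lipid phosphatase Mtm1, 1.65-fold, 1.60-fold and 1.55-fold lower in scaled reads at 5.16 to 7.16 CPM in Mgp2. Id2 was at 22.4 and 20.5 CPM in Mgp2, above the 15.1 to 18.9 CPM of the Slpi-directed lines and the 9.50 and 10.2 CPM of the line labelled 88943.

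Among transcripts higher in Mgp2, after Rbmx, Tnnt2 and Prdx5 stood out in both libraries. Tnnt2, cardiac troponin T, was at 159 and 145 CPM in Mgp2, against 121 and 112 CPM in Mgp1, 106 and 107 CPM in Mgp1U1, and 102 and 93.4 CPM in Mgp1U3. Prdx5, a peroxiredoxin that reduces peroxides, was at 138 and 125 CPM in Mgp2, against 77.6 to 103 CPM in the other 6; 19.1% of its exon bases overlap Trmt112, and strand use in counting is not given, so its value is uncertain. Each was higher by 0.41 ± 0.04 (limma, adjusted p = 0.000156 for each), and both also lay above all 8 Slpi-directed shERWOOD libraries. Both were higher still in the line labelled 88943, with 218 and 202 CPM of Tnnt2 and 153 and 144 CPM of Prdx5. Ddit4 (REDD1), a stress-induced inhibitor of mTORC1, was at 25.6 and 15.5 CPM in Mgp2, against 8.77 to 12.5 CPM in the other 6, 2.02-fold higher in scaled reads (log2 difference 0.43 ± 0.07, limma, adjusted p = 0.00277). Its 2 Mgp2 libraries differed from each other by more than the 6 others did among themselves, and without Mgp2-1 the difference was 0.25 (adjusted p = 0.0116). The Ddit4 level was 21.7 to 108 CPM in the Slpi-directed shERWOOD libraries, and 96.7 and 86.2 CPM in the line labelled 88943, so Mgp2 was high only beside the 3 other shERWOOD lines against Mgp.

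Pmepa1 and Inhba lay above the other lines but close to Mgp1. Pmepa1, a membrane protein that TGF-β induces and that dampens its signal, was at 370 and 300 CPM in Mgp2, against 173 to 284 CPM in the other 6 (0.45 ± 0.06, limma, adjusted p = 0.000775). Inhba, which encodes the subunit of activin A, was at 218 and 172 CPM in Mgp2, against 110 to 162 CPM in the other 6 (0.40 ± 0.06, limma, adjusted p = 0.00154). Neither passed against Mgp1 alone (adjusted p = 0.064 and 0.057), and without Mgp1U1, the lowest line for both, the differences were 0.28 and 0.26. Col7a1, the collagen of anchoring fibrils, was at 148 and 136 CPM in Mgp2, against 93.3 to 124 CPM in the other 6 (0.36 ± 0.04, limma, adjusted p = 0.000199), and passed against each line. Tinagl1, a secreted matrix protein (0.31 ± 0.04), also passed against each line, while Fbln2, a fibulin of elastic fibres (0.29 ± 0.04), did not pass against Mgp1U3. Coro2a, an actin-binding coronin, Trmt61a, the catalytic subunit of a tRNA methyltransferase, and Rpl37a, a ribosomal protein, were higher by 0.35, 0.35 and 0.31. By fold, the Notch ligand Dll1 (1.53-fold, with 20.5% of its exon bases shared with another gene), the adaptor Grap and Hs3st1, a heparan sulfate sulfotransferase (1.48-fold), were added at 11.9 to 15.3 CPM in Mgp2.

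Set against lines with another target, the genes that marked Mgp2 against all 3 companions did so in part. Of the 30 higher genes, 12 (40.0%) had both Mgp2 libraries above all 8 Slpi-directed shERWOOD libraries in CPM, where 17.4% of all genes tested did. Of the 112 lower genes, 67 (59.8%) had both below, where 26.8% of all genes did. These libraries come from a separately normalized table, so the levels were set side by side without a test. The genes were chosen by the values of the same 2 Mgp2 libraries. Shares above those of all genes, here and against the line labelled 88943, are thus partly set by that choice. Against both libraries of the line labelled 88943, 11 of the 30 (36.7%) were higher in both Mgp2 libraries, where 34.1% of all genes were, and 15 were lower; of the 112, 79 (70.5%) were lower, where 45% of all genes were, and 18 were higher. For the 30 the share was thus near that of all genes. Among the 30 genes named by rule, 7 of the 15 higher and 9 of the 15 lower lay outside the Slpi-directed libraries in the same direction, and Cxcl5 and Id2 lay outside them in the opposite one. Outside the line labelled 88943 lay 5 of the 15 higher and 8 of the 15 lower in the same direction, and 9 and 2 in the opposite one.

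The ribosomal protein genes had the largest median difference of the 24 gene lists with a tested member, and it was larger in Mgp2-1. The median log2 difference over all genes tested was 0.005. Of 36 ribosomal protein genes 20 rose and 0 fell, a share of 55.6% where 14.2% of all genes passed, with a median of 0.18 and 0.27 in Mgp2-1 but 0.11 in Mgp2-2. Rplp1, an acidic stalk protein of the large subunit, was at 936 and 771 CPM in Mgp2, against 563 to 767 CPM in the other 6. On the deposited scale the groups overlapped for 16 of the 20 that rose, Rplp1 included. Without Mgp2-1, 1 of the 36 passed, without the line Mgp1 0, and with no filter on low values 1, so the count rests on these choices. It was 7 and 8 without Mgp1-1 and Mgp1-2, 2 and 7 without Mgp1U1-1 and Mgp1U1-2, and 12 without Mgp1U3-2.

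Of 20 tested immediate early and ERK feedback genes, 8 rose and 0 fell (40.0%, against 14.2% of all genes), with a median of 0.06. Jun, the AP-1 subunit, was at 132 and 124 CPM in Mgp2, against 82.4 to 119 CPM in the other 6 (0.29 ± 0.04, limma, adjusted p = 0.00148). Hbegf, a ligand of the EGF receptor, was at 229 and 224 CPM in Mgp2, against 159 to 200 CPM in the other 6 (0.28 ± 0.04, limma, adjusted p = 0.00136), and passed against each line. Ier3 (0.26 ± 0.04) and Junb (0.25 ± 0.05) were among the others; Junb stood at 37.0 and 30.8 CPM in Mgp2, against 33.7 to 54.9 CPM in the Slpi-directed shERWOOD libraries. Without Mgp2-1 or without the line Mgp1U3, 4 of the 20 passed.

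Of 41 hnRNP and SR splicing factors, the family of Rbmx, 1 rose, Rbmx itself, and 6 fell, with a median of -0.06. The share of 17.1% is near the 14.2% of all genes, so it says nothing of the family as a whole. Srsf5, an SR protein, was at 340 and 350 CPM in Mgp2, against 362 to 449 CPM in the other 6 (-0.22 ± 0.04, limma, adjusted p = 0.00354). Cirbp, a cold-inducible RNA-binding protein, was at 13.8 and 16.1 CPM in Mgp2, against 14.4 to 27.7 CPM in the other 6, and overlapped with Mgp1 (-0.22 ± 0.04, limma, adjusted p = 0.00317). Neither passed against Mgp1 alone, so of the 41 only Rbmx and Rbmxl1 passed against all 3 lines. The number that fell was 3 without Mgp1U1-1, 4 without Mgp1-1 and 17 without Mgp2-2.

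Several other lists had members that passed, and their counts depended on single libraries. Of 23 NRF2 targets 4 fell and 0 rose (17.4%, near the 14.2% of all genes), Gclc, which limits glutathione synthesis (-0.30 ± 0.04), and Gsta4 among them; 2 fell without Mgp2-1 or any 1 library of Mgp1 or Mgp1U1. Hmox1 was at 25.6 and 41.3 CPM in Mgp2, against 39.4 to 53.5 CPM in the other 6, the low value being that of Mgp2-1. Of 17 integrated stress response genes (29.4% called), Ddit4, Nupr1 and Pck2 rose and Asns and Slc7a11 fell. The 2 falls were not called without Mgp2-1, Mgp1-2, Mgp1U1-1 or Mgp1U1-2, with no filter or with array weights, where 1 or 2 rose. Of 17 hypoxia and glycolysis genes 4 rose, Tpi1, Gapdh, Pfkl and Aldoa, by 0.14 to 0.20, and 0 fell (23.5% called). There 1 rose when a library of Mgp1 or Mgp1U1, or Mgp1U3-2, was left out, 2 rose without Mgp2-1, and 6 rose and 2 fell without Mgp2-2.

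Of 16 chaperones of the endoplasmic reticulum 3 fell and 0 rose (18.8%), with 0 called without Mgp2-1, Mgp1-1, Mgp1-2 or Mgp1U1-1, 1 without Mgp1U1-2 or Mgp1U3-2, and 5 without Mgp2-2. Of 15 genes of the small RNA pathway, which the hairpins use, 1 fell (6.67%), Ago2, the slicing Argonaute, at 565 and 625 CPM in Mgp2, against 638 to 734 CPM in the other 6 (-0.24 ± 0.04, limma, adjusted p = 0.00431), and it passed against each line. Of 16 regulators of mineralization, the process Mgp is known for, 2 fell (12.5%), Id2 and the phosphate carrier Slc20a1. Epithelial genes (2 higher and 3 lower of 14, 35.7%), mesenchymal and matrix genes (2 and 3 of 12, 41.7%), YAP and TEAD targets (3 and 2 of 17, 29.4%) and Trp53 targets (2 and 2 of 12, 33.3%) had calls in both directions at shares above the 14.2% of all genes. Without Mgp2-1 these were 1 and 1, 0 and 2, 1 and 1, and 0 and 1, and leaving out Mgp1U1-1 gave 1 and 1, 1 and 2, 1 and 1, and 0 and 1; Mgp1-1, Mgp1-2 and Mgp1U1-2 lowered them to similar counts. Histone genes (2 and 0 of 11) passed at 18.2%. Below the share of all genes were interferon-stimulated genes (0 and 1 of 10), mitosis (1 and 0 of 22), cholesterol synthesis (1 and 0 of 20) and the respiratory chain (2 and 0 of 29).

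**Figure D4:**
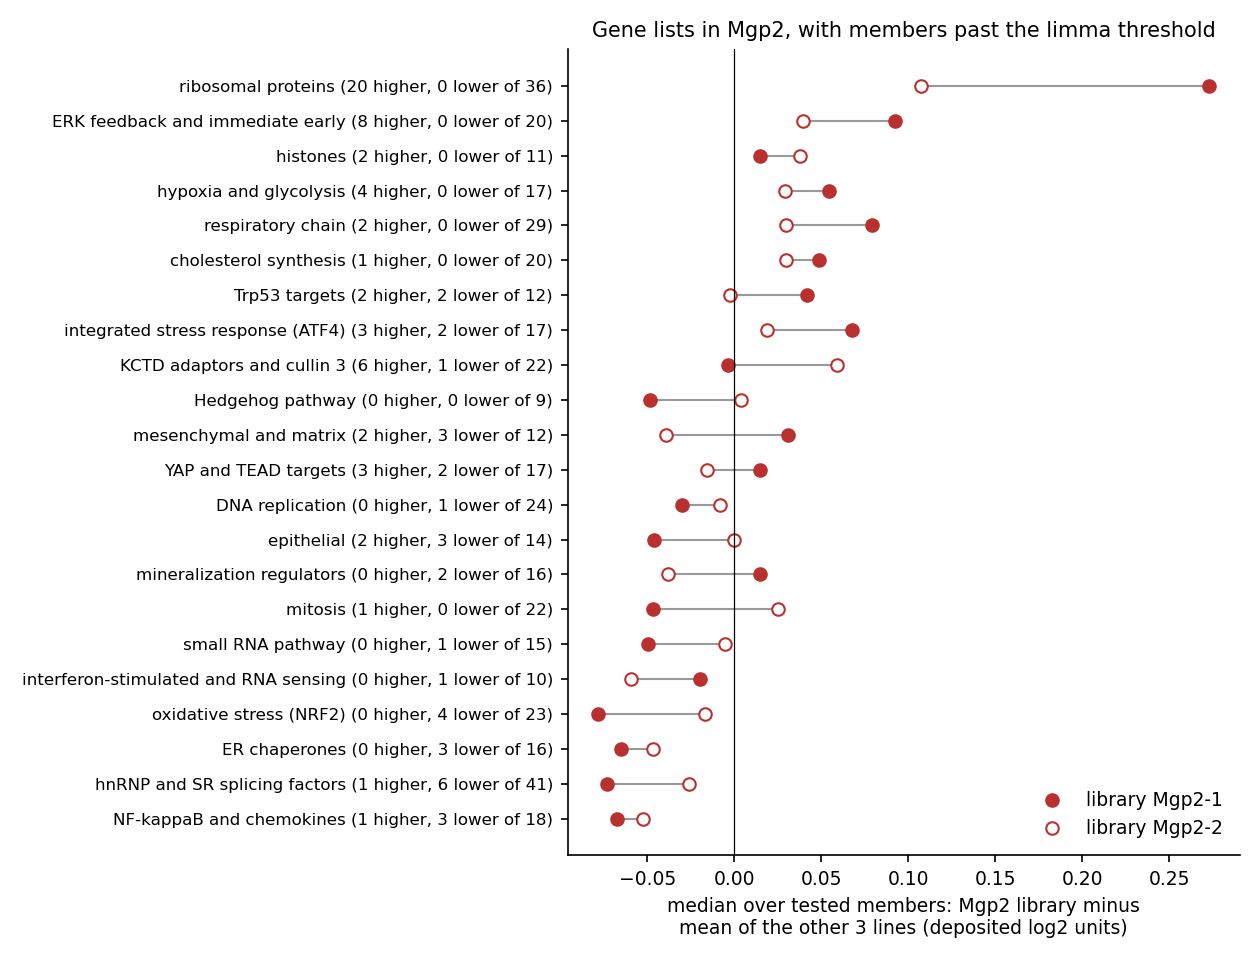
Median over the tested members of each gene list of the difference between a Mgp2 library and the mean of the other 3 lines, in deposited log2 units (x axis; filled points Mgp2-1, open points Mgp2-2); list names give the members that passed in limma. Of the lists drawn, ribosomal proteins lie farthest from 0, at 0.27 in Mgp2-1 and 0.11 in Mgp2-2.

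A property that the comparison did not use separated the genes that were higher from those that were lower in Mgp2: transcript length. For the 8648 genes tested (94.9%) that have a GENCODE transcript, the median length was 3104.5 bases; it was 2473 bases among those higher in Mgp2 and 4692 bases among those lower. For the genes that passed against all 3 lines it was 2085 bases in the higher and 4878 bases in the lower set. The 3′ untranslated region had a median of 795 bases in the higher and 1803 bases in the lower set, against 1039 bases in all genes tested. The median GC content of the transcript was 55.2% in the higher and 44.7% in the lower set, against 49.8% in all genes tested. The sets also differed in level, with a median of 50.4 CPM in the higher and 101 CPM in the lower set, against 47.6 CPM in all genes tested. The genes were put into 5 classes of nearly equal number by transcript length. Of 1731 genes in the shortest class (66 to 1767 bases), 193 rose (11.1%) and 40 fell (2.31%). Of 1730 in the longest (5079 bases and more), 58 rose (3.35%) and 291 fell (16.8%). Of all 9109 genes tested 6.6% rose and 7.61% fell.

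The relation with length was also described for each library, as its deviation from the mean of all 8. The deviations of a gene balance each other, so a slope in 1 library partly sets opposite slopes in others. The values thus do not show the relation in each line by itself. Across genes, Spearman's correlation of transcript length with a library's deviation from the mean of the 8 was -0.32 in Mgp2-1 and -0.19 in Mgp2-2, against 0.32 and 0.27 in Mgp1, -0.11 and -0.15 in Mgp1U1, and -0.03 and 0.30 in Mgp1U3. Genes within a library share its preparation, so these are descriptions without a test. In Mgp2-1 the median deviation was 0.05 in the shortest class and -0.05 in the longest, and in Mgp2-2 it was 0.02 and -0.02. The 2 libraries of Mgp1U3 thus differed from each other in this relation, and those of Mgp1U1 had the same sign as Mgp2. Length, 3′ region and GC content go together across genes, and Rn45s reads were most frequent in the same library, Mgp2-1. The part of any of them, or of expression level, in the differences was not tested.

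**Figure D5:**
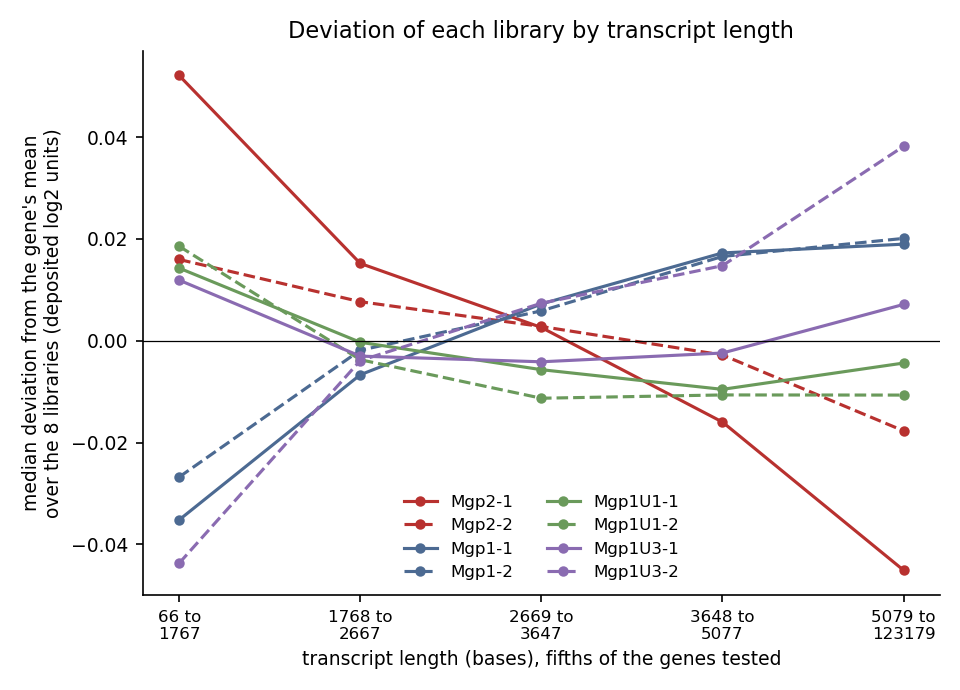
Median deviation of each of the 8 libraries from the gene's mean, in deposited log2 units (y axis), in 5 classes of 8648 genes by transcript length (x axis, bases). Mgp2-1 slopes down, with 0.05 in the shortest and -0.05 in the longest class, the libraries of Mgp1 and Mgp1U3-2 slope up, and Mgp2-2 lies between.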

How the data were processed

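Per the labels, libraries came from 100 ng of DNase-treated RNA (NuGEN Ovation kit) and gave reads of 76 bp. The authors deposited variance-stabilized values on a log2-like scale; per the submitters' processing notes the tools were Bowtie2, HTSeq and DESeq, with no version, and the build was mm10. Annotation and strand setting: not given in the sources used here. The smallest deposited log2 value, 8.12, stands for 0 reads, and a doubling from 100 to 200 scaled reads is 0.34 units, from 1000 to 2000 it is 0.75. Inverting the transform gave whole reads for 100% of values (within 0.001), from which CPM and folds were computed.

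The labels list 4 samples per hairpin and the table holds 2 libraries, assigned by hairpin name. That these hairpins are shERWOOD designs was inferred from their names and drug. That the line labelled 88943 is directed at Mgp was inferred from its being deposited together with the Mgp lines. limma 3.58.1 (R 4.3.3) was fitted with an intensity trend to 8 libraries and a mean per line, for 9109 of 23480 genes with a mean at least 1 unit above the smallest value (139 scaled reads); p-values are two-sided and adjusted over all of them. The fit was tried on simulated reads with equal noise in all 8 libraries. That setting leaves out the wider spread of the Mgp2 pair, so it cannot show how the fit handles it. Annotation came from GENCODE vM21, with the transcript of longest coding part per gene. Alternatives were other filters, scalings, weights, voom on the recovered reads, each library or line left out, the line labelled 88943 included, a replicate block, and line means as samples. Named genes were the 12 largest differences in each direction with both Mgp2 libraries outside the other 6, 3 more by fold, Mgp, Rbmx, Kctd11 and up to 4 per list; unnamed gene models were passed over. Rbmxl1, Ago2, Pck2 and the genes of the closing paragraph were chosen after their values were seen. The members and the gene lists were chosen with earlier results of these data known. Some genes that these rules name are not reported here.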

Additional observations from a re-analysis of the deposited data

How the results depend on the processing

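The number of genes that passed in Mgp2 against the mean of the other lines (1294), with both libraries outside (972), against Mgp1 (776), Mgp1U1 (522) and Mgp1U3 (1896), and against all 3 (142) fell with no filter on low values to 482, 434, 147, 264, 1068 and 41. With the stricter filter of 3 units they were 565, 433, 375, 206, 758 and 82, and fewer genes were tested. Array weights gave 445 on the mean, 360 outside and 960 against Mgp1U3. Without the line Mgp1 there were 840 on the mean and 306 against Mgp1U1; without Mgp1U1, 322 against Mgp1; without Mgp1U3, 504 on the mean and 460 outside. With line means as samples 1 gene passed on the mean and outside. The cause of these shifts was not tested. Leaving out 1 library gave 392 to 2925 on the mean, 358 to 2819 outside, 57 to 2511 against Mgp1, 84 to 1689 against Mgp1U1, 338 to 3363 against Mgp1U3 and 19 to 933 against all 3. The lowest count on the mean and the highest of all 6 counts were those without Mgp2-1 and without Mgp2-2. Equal medians (1315, with 37.5% higher against 46.4%), quantile normalization (1159), voom (1432, or 1477 with a minimum of 10 scaled reads) and the line labelled 88943 in the fit (1632) changed the count on the mean by less than 1.5 times.

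Mgp was below the mean of the other lines by -0.17. It was -0.16 with quantile normalization, -0.61 with voom under either filter, -0.17 with array weights and -0.17 with line means as samples, and -0.18 to -0.15 with 1 library left out, none of which passed; without Mgp1U1 it was 0.012. Mgp lies under the stricter filter, which gives it no value.

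Library numbers were not used to pair the libraries in the main fit, since what they stand for is not given. Deviations of same-numbered libraries correlated between -0.17 and 0.28 across pairs of lines, with 0.22 for Mgp2 and Mgp1 and 0.28 for Mgp2 and Mgp1U3. With a replicate block 1597 genes passed on the mean, against 1294 without it. Whether libraries of the same number share a preparation was not tested.

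The 30 genes named by rule held direction and threshold in 581 of 615 comparisons; 29 of the 34 losses came with line means as samples. At an unadjusted p under 0.05, 2975 genes differed. With 2 libraries per hairpin, not known to come from separate cultures, and a compressed scale for genes of few reads, small folds of weakly expressed genes were not detectable at this depth.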

Other observations

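Among the 142 genes that passed against all 3 lines, 5 that no list or rule above names are given here as values, picked after they were seen, and they stand for no group of genes. Tfrc, the transferrin receptor, was at 359 and 352 CPM in Mgp2, against 393 to 525 CPM in the other 6 (-0.31 ± 0.04, limma, adjusted p = 0.000979). Slc11a2, a divalent metal transporter, was at 60.3 and 54.5 CPM in Mgp2, against 68.0 to 76.1 CPM in the other 6 (-0.23 ± 0.04, limma, adjusted p = 0.00397). Patl1, a decapping factor, stood at 97.8 and 102 CPM in Mgp2, against 119 to 150 CPM in the other 6, and Cnot6l, a deadenylase subunit, at 38.6 and 46.2 CPM in Mgp2, against 55.1 to 60.2 CPM in the other 6. Braf, a kinase upstream of ERK, was at 54.6 and 56.3 CPM in Mgp2, against 67.1 to 79.4 CPM in the other 6 (-0.30 ± 0.04, limma, adjusted p = 0.000351). Braf, Patl1 and Cnot6l lay below all 8 Slpi-directed shERWOOD libraries and below the line labelled 88943. Tfrc and Slc11a2 did not, and both were above the line labelled 88943.

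Neat1, the nuclear RNA of paraspeckles, differed by 0.43 ± 0.04 (limma, adjusted p = 3.82e-05) without standing apart: it was at 205 and 229 CPM in Mgp2, against 213 and 209 CPM in Mgp1, 116 and 118 CPM in Mgp1U1, and 140 and 145 CPM in Mgp1U3. Mgp2 and Mgp1 overlapped and both lay above the other lines.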
